A study of Mus musculus with 6 samples.

Results

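The genes described are those of mitochondrial respiratory complex I, taken as every entry of the deposited expression table whose symbol begins with Nduf. There were 45 such genes among 21361: 36 subunits of the complex, 7 assembly factors (Ndufaf1 to Ndufaf7), and Ndufa4 with its paralog Ndufa4l2. All 45 passed the filter on low values. They were measured by RNA-seq of epididymal white adipose tissue (eWAT), the visceral fat pad of male mice, from 3 Mettl14Δfat and 3 Mettl14f/f males. Mettl14Δfat mice carry floxed Mettl14 alleles and 1 copy of Cre driven by the adiponectin promoter (Mettl14f/f;Cre+/−), so the deletion is aimed at adipocytes and the other cells of the fat pad keep the gene. Mettl14f/f mice carry the same floxed alleles without Cre, and the labels also call them WT. Mettl14 is a subunit of the enzyme that methylates adenosine in mRNA to m6A. All mice were 8 weeks old when a high fat diet (HFD) began, were kept on it for 16 weeks by the sample protocol and 20 weeks by the series description, and were fasted overnight. Each library came from 1 mouse.

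Complex I, NADH:ubiquinone oxidoreductase, is the entry point of electrons from NADH into the respiratory chain of the inner mitochondrial membrane, and it pumps protons as it passes them to ubiquinone. Its matrix arm consists of the N module, which oxidizes NADH, and the Q module, which reduces ubiquinone, and its membrane arm has a proximal and a distal part. Core subunits carry the cofactors and the proton channels, while accessory subunits surround and stabilize them. Assembly factors bind intermediates while the complex is built and are absent from the finished enzyme. White adipocytes hold fewer mitochondria than brown adipocytes and use them for fatty acid handling as well as for ATP. No deposited entry was matched to the core subunits encoded in mitochondrial DNA or to Ndufb1, so these were not analysed here.

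FPKM is a fragment count adjusted for transcript length and library size. FPKM summed to between 487025 and 487690 in Mettl14Δfat libraries and between 459180 and 461757 in Mettl14f/f libraries. Values below are scaled FPKM, the deposited FPKM divided by a factor for each library. Fold changes are log2 values of Mettl14Δfat over Mettl14f/f on log2(scaled FPKM + 1), fitted by limma over 12955 genes, and a gene passed at a Benjamini-Hochberg adjusted p under 0.05. In the fit, 3211 genes were higher and 3209 lower in Mettl14Δfat eWAT, with a median log2 fold change of 0.01. With FPKM as deposited, these were 4672 and 1963, with a median of 0.15. Mettl14 itself had 4.19, 4.12 and 4.29 scaled FPKM in Mettl14Δfat libraries, against 5.37, 5.00 and 5.79 in Mettl14f/f libraries. The groups did not overlap, with means of 4.20 and 5.39 (log2 fold change −0.30, SE 0.0659, limma adjusted p = 0.0108). These values are for the whole fat pad, where cells other than adipocytes keep the gene. By qPCR, the paper reports markedly lower Mettl14 mRNA in Mettl14Δfat eWAT. With FPKM as deposited the log2 fold change of Mettl14 was −0.16 and did not pass (limma adjusted p = 0.0856). Sperm transcripts were present in Mettl14Δfat replicates 1 and 2. Prm1, a protamine of the male germ line, was at 58.0 and 87.4 scaled FPKM there, against 0.145 in Mettl14Δfat replicate 3 and at most 0.561 in Mettl14f/f libraries. Counts are therefore also given with Mettl14Δfat replicates 1 and 2 left out, where the lone Mettl14Δfat library was assumed to vary like the others.

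For 4 members whose values carry the contrasts below, the 130 bases just before the annotated start are printed, 5′ to 3′ on the strand of the gene, from RefSeq (GRCm38.p6). Capitals mark a match to the palindromic binding sequence of Nrf1 (nuclear respiratory factor), which is GCGCA followed by its reverse complement, or to CCGGAAG, that of ETS factors such as the GABP complex. Both factors are known regulators of nuclear genes for respiratory chain proteins. Ndufaf4 changed most, Ndufaf1 was the next of the assembly factors, Ndufs3 changed most of the core subunits, and Ndufv1 least of all members.
Ndufaf4, chr4:24897953-24898082, plus strand: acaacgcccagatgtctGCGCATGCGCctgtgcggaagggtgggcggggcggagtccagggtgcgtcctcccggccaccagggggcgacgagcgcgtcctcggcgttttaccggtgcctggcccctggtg
Ndufaf1, chr2:119662835-119662964, minus strand: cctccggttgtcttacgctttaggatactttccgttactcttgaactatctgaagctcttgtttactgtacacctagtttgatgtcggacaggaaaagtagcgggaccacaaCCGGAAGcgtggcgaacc
Ndufs3, chr2:90904722-90904851, minus strand: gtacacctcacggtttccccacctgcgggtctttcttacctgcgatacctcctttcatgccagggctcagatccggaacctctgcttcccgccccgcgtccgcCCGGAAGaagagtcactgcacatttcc
Ndufv1, chr19:4012756-4012885, minus strand: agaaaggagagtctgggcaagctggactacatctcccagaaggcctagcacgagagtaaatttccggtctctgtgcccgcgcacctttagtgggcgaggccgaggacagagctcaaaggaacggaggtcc
The match began 113 bases before the start in Ndufaf4, 18 bases before it in Ndufaf1 and 27 bases before it in Ndufs3. The window of Ndufv1 held neither sequence. These windows do not stand for the members, most of which held neither sequence. Ndufab1 (log2 fold change 0.75), Ndufa8 (0.67) and Ndufb3 (0.62) changed more than Ndufs3 (0.61), and their windows held neither.

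Most of the complex I transcripts analysed were higher in Mettl14Δfat eWAT than in Mettl14f/f eWAT, with some higher in each module. Of 45 members, 34 were higher at an adjusted p under 0.05 by limma and 11 did not pass, beside 24.8% of all genes tested that were higher. No member was lower by limma, beside 24.8% of all genes tested, and none was lower at an unadjusted p under 0.05, at which 36 were higher. The share of all genes at that unadjusted p was not counted. The estimated log2 fold change was above 0 for all 45 (median 0.37), beside 6628 of 12955 genes tested. Of the 45, 5 that did not pass (Ndufa13, Ndufa9, Ndufaf3, Ndufb2 and Ndufv1) had an estimate below 0 under at least 1 alternative setting. In 37 members the 3 Mettl14Δfat libraries all lay above the 3 Mettl14f/f libraries, beside 30.3% of all genes tested. From Mettl14Δfat replicate 3 alone, 18 members were higher, all among the 34, beside 13.2% of all genes in that fit, and 43 had a log2 fold change above 0. These 18 were 16 subunits and 2 assembly factors. With FPKM as deposited 40 members were higher, beside 36.1% of all genes tested. In bulk tissue, a larger share of cells of a type and more RNA per cell cannot be told apart.

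**Figure D1:**
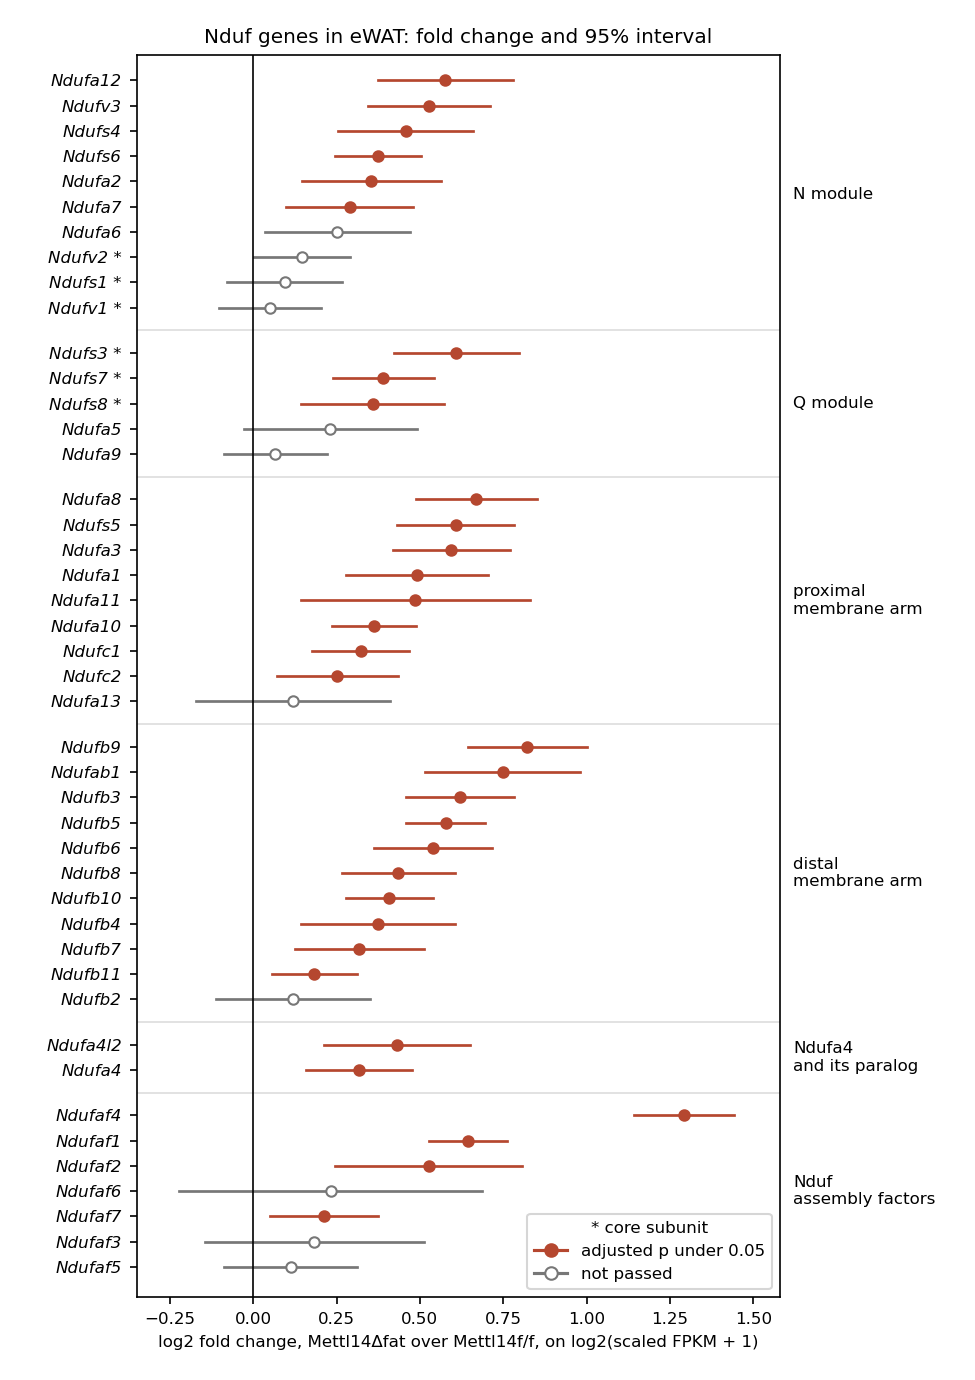
Log2 fold change of 44 Nduf genes, Mettl14Δfat over Mettl14f/f, on log2(scaled FPKM + 1), with its 95% interval from limma (3 libraries each), grouped by module. Filled points passed an adjusted p under 0.05, open points did not, and stars mark core subunits. All 44 estimates lie right of 0, and Ndufaf4 at 1.29 stands beyond the subunits, which end at 0.82.

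The subunits and the assembly factors were on different scales of abundance. The median subunit was at 92.6, 94.8 and 89.2 scaled FPKM in Mettl14Δfat libraries, against 65.0, 66.4 and 68.3 in Mettl14f/f libraries. The median assembly factor was at 11.2, 11.7 and 10.4 in Mettl14Δfat libraries, against 7.48, 7.25 and 7.48 in Mettl14f/f libraries. Both medians were thus higher in every Mettl14Δfat library than in any Mettl14f/f library. The share of all FPKM that fell on the 36 subunits was 0.756%, 0.796% and 0.690% in Mettl14Δfat libraries, against 0.527%, 0.519% and 0.528% in Mettl14f/f libraries. Within a library, the median subunit was 8.26, 8.09 and 8.57 times the median assembly factor in Mettl14Δfat eWAT, against 8.70, 9.15 and 9.14 times in Mettl14f/f eWAT, so the ratio was lower in each Mettl14Δfat library. The gene at the middle of the 7 assembly factors was not the same one in every library.

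By counts, 28 of 36 subunits and 4 of 7 assembly factors were higher. Beside these counts, and those by module and gene list below, 24.8% of all genes tested were higher and 24.8% lower. The median log2 fold change was 0.37 for the subunits (range 0.05 to 0.82) and 0.23 for the assembly factors (range 0.11 to 1.29). Without Mettl14f/f replicate 2 the order turned, with medians of 0.38 for the subunits and 0.39 for the assembly factors. The difference was not tested, since the members are not replicates. The pseudocount of 1 compresses the changes of genes at low levels, and with a pseudocount of 0.1 the medians were 0.38 for the subunits and 0.32 for the assembly factors.

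Ndufaf4, which acts with Ndufaf3 early in building the Q module, had the largest fold change of the 45. It had 11.2, 11.7 and 11.3 scaled FPKM in Mettl14Δfat libraries, against 4.39, 3.77 and 4.07 in Mettl14f/f libraries. The groups were far apart and each was tight, with means of 11.4 ± 0.265 and 4.08 ± 0.310 (SD, n = 3 each), a 2.80-fold difference. The log2 fold change was 1.29 (95% interval 1.14 to 1.44, SE 0.0623, limma adjusted p = 0.000108), and 2.96% of all genes tested had a larger one. The gene lies at chr4:24898083-24905001. Its level was above that of Ndufaf7 in each Mettl14Δfat library and below it in each Mettl14f/f library. Set against the median subunit of the same library as 100, Ndufaf4 was at 12.1, 12.4 and 12.7 in Mettl14Δfat eWAT and at 6.75, 5.68 and 5.95 in Mettl14f/f eWAT, so it was higher relative to the subunits as well. Ndufaf3, its partner, had 12.5, 14.7 and 10.4 scaled FPKM in Mettl14Δfat libraries, against 9.33, 12.0 and 11.3 in Mettl14f/f libraries. The groups overlapped, and the log2 fold change of 0.18 (95% interval −0.14 to 0.51) did not pass (limma adjusted p = 0.297). The exons of Ndufaf3 overlap those of Impdh2 on the other strand by 48 bases, and the sources used here do not say whether strand was used in counting.

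Ndufaf1, which joins Ecsit, Acad9, Tmem126b and Timmdc1 in a complex that builds the proximal membrane arm, had 12.2, 12.1 and 12.5 scaled FPKM in Mettl14Δfat libraries, against 7.48, 7.25 and 7.72 in Mettl14f/f libraries. The groups did not overlap, with means of 12.3 ± 0.212 and 7.48 ± 0.233 (SD, n = 3 each). The log2 fold change was 0.64 (95% interval 0.53 to 0.76, SE 0.0485, limma adjusted p = 0.000297). The gene lies at chr2:119655446-119662839. Ndufaf2, a paralog of the subunit Ndufa12 that serves late in assembly, had 18.5, 18.0 and 14.8 scaled FPKM in Mettl14Δfat libraries, against 10.1, 13.1 and 11.6 in Mettl14f/f libraries. Its lowest Mettl14Δfat library was above its highest Mettl14f/f library, and the log2 fold change was 0.53 (SE 0.117, limma adjusted p = 0.0106). Of the 7, only Ndufaf4 and Ndufaf1 passed with Mettl14Δfat replicate 3 alone.

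Ndufaf7, which methylates an arginine of a core subunit, had 9.61, 8.86 and 8.11 scaled FPKM in Mettl14Δfat libraries, against 7.65, 7.34 and 7.48 in Mettl14f/f libraries. The groups were apart by a small margin, and the log2 fold change of 0.21 passed (SE 0.0678, limma adjusted p = 0.0382). It lost the call without any 1 of the libraries other than Mettl14Δfat replicate 3, with adjusted p between 0.0771 and 0.125. Ndufaf5, which hydroxylates an arginine of Ndufs7, had 2.22, 2.60 and 2.51 scaled FPKM in Mettl14Δfat libraries, against 2.22, 2.24 and 2.09 in Mettl14f/f libraries. Its groups overlapped at these low levels (log2 fold change 0.11, 95% interval −0.09 to 0.31, limma adjusted p = 0.298). Ndufaf6, needed in humans for the Q module and for the mitochondrially encoded subunit next to it, had 3.47, 2.64 and 3.37 scaled FPKM in Mettl14Δfat libraries, against 1.68, 3.35 and 2.75 in Mettl14f/f libraries. Relative to its level it varied most of the 7 between mice of 1 group (log2 fold change 0.23, 95% interval −0.22 to 0.69, limma adjusted p = 0.339). Ndufaf8, listed in the table as 1810043H04Rik and so not among the 45, had 18.9, 22.1 and 19.3 scaled FPKM in Mettl14Δfat libraries, against 14.7, 21.1 and 20.9 in Mettl14f/f libraries, with overlap (log2 fold change 0.10, limma adjusted p = 0.590).

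**Figure D2:**
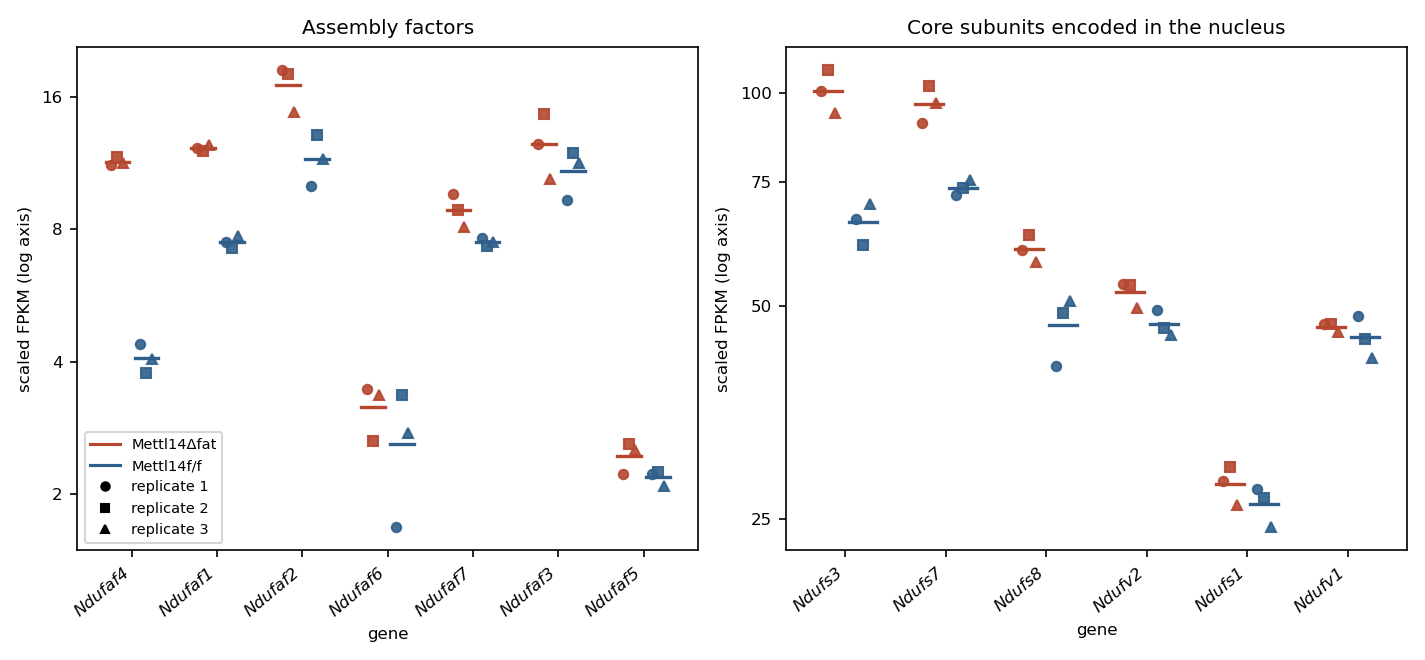
Scaled FPKM on a log axis for the 7 assembly factors (left) and 6 core subunits encoded in the nucleus (right), in order of fold change; each symbol is 1 library, the bar is the group mean, red is Mettl14Δfat and blue is Mettl14f/f. Ndufaf4 shows the widest gap between groups (11.4 against 4.08), while the groups of Ndufv1 and Ndufs1 overlap.

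The N module holds the NADH-oxidizing core, and its 3 core subunits did not pass. Ndufv1, which binds NADH and the flavin that accepts its electrons, had 47.1, 47.1 and 46.0 scaled FPKM in Mettl14Δfat libraries, against 48.5, 44.9 and 42.2 in Mettl14f/f libraries. The highest of the 6 was a Mettl14f/f library, and the log2 fold change was 0.05 (95% interval −0.10 to 0.20, limma adjusted p = 0.542). Ndufs1, the largest subunit, which carries iron-sulfur clusters, had 28.3, 29.7 and 26.2 scaled FPKM in Mettl14Δfat libraries, against 27.6, 26.8 and 24.4 in Mettl14f/f libraries. The groups overlapped here too (log2 fold change 0.09, 95% interval −0.08 to 0.27, limma adjusted p = 0.310). Ndufv2, another iron-sulfur subunit of the module, had 53.7, 53.6 and 49.7 scaled FPKM in Mettl14Δfat libraries, against 49.4, 46.6 and 45.5 in Mettl14f/f libraries. Its groups touched without overlap (log2 fold change 0.15, 95% interval 0.00 to 0.29, limma adjusted p = 0.0844). With FPKM as deposited all 3 passed, at adjusted p of 0.0450 for Ndufv1, 0.0403 for Ndufs1 and 0.0116 for Ndufv2, on the scale where the median of all genes was 0.15. Ndufv2 also passed without Mettl14Δfat replicate 3 (limma adjusted p = 0.0430).

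The accessory subunits of the N module moved more. Ndufa12 had 123, 134 and 114 scaled FPKM in Mettl14Δfat libraries, against 78.5, 89.6 and 79.9 in Mettl14f/f libraries. The groups did not overlap (log2 fold change 0.58, SE 0.0841, limma adjusted p = 0.00222). Ndufv3 (log2 fold change 0.53), Ndufs4 (0.46), Ndufs6 (0.37), Ndufa2 (0.35) and Ndufa7 (0.29) were also higher, while Ndufa6 at 0.25 did not pass (limma adjusted p = 0.0576) although its groups did not overlap. Ndufa6 passed with FPKM as deposited (0.41, limma adjusted p = 0.00986). Without 1 library, Ndufa6 passed (Mettl14f/f replicate 3 left out, limma adjusted p = 0.0258), and Ndufa2 did not (Mettl14f/f replicate 2, 0.0510). Ndufa7 lost the call without Mettl14Δfat replicate 1 (0.0773), Mettl14Δfat replicate 2 (0.0601) or Mettl14f/f replicate 3 (0.0579). In all, 6 of the 10 subunits of this module were higher, with a median of 0.32. Relative to the median subunit as 100, Ndufv1 was at 50.9, 49.7 and 51.6 in Mettl14Δfat eWAT and at 74.5, 67.6 and 61.8 in Mettl14f/f eWAT, so its place among the subunits was lower in every Mettl14Δfat library.

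In the Q module, the core subunits Ndufs3, Ndufs7 and Ndufs8 were higher. Ndufs3, which forms the scaffold of the module, had 101, 108 and 93.9 scaled FPKM in Mettl14Δfat libraries, against 66.4, 61.0 and 69.7 in Mettl14f/f libraries. The groups were well apart, with means of 101 ± 7.0 and 65.7 ± 4.42 (SD, n = 3 each; log2 fold change 0.61, 95% interval 0.42 to 0.80, limma adjusted p = 0.00147). The gene lies at chr2:90894627-90904721 and shares 88 exonic bases with Kbtbd4 on the other strand, a gene whose own log2 fold change was 0.09 (limma adjusted p = 0.305). Ndufs7, which lines the ubiquinone site and holds the last iron-sulfur cluster, had 90.8, 102 and 96.8 scaled FPKM in Mettl14Δfat libraries, against 71.7, 73.3 and 75.3 in Mettl14f/f libraries. All Mettl14Δfat values were above all Mettl14f/f values (log2 fold change 0.39, SE 0.0632, limma adjusted p = 0.00324). Ndufs8, another iron-sulfur subunit, had 60.0, 63.1 and 57.7 scaled FPKM in Mettl14Δfat libraries, against 41.2, 48.9 and 50.9 in Mettl14f/f libraries. Its groups were apart, with 1 low Mettl14f/f library (log2 fold change 0.36, SE 0.0897, limma adjusted p = 0.0165). Without Mettl14Δfat replicate 1, Ndufs8 had an adjusted p of 0.0541, and it did not pass with Mettl14Δfat replicate 3 alone. The accessory subunits of the module did not pass. Ndufa5 had a log2 fold change of 0.23 (limma adjusted p = 0.117) with groups apart, and Ndufa9 had 0.07 (limma adjusted p = 0.423) with overlap. Both passed with FPKM as deposited, at 0.39 for Ndufa5 (limma adjusted p = 0.0287) and 0.23 for Ndufa9 (limma adjusted p = 0.0346).

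The proximal membrane arm had 8 of 9 subunits higher, with a median log2 fold change of 0.49. Ndufa8, a cysteine-rich subunit on the intermembrane side, had 130, 134 and 118 scaled FPKM in Mettl14Δfat libraries, against 75.2, 84.5 and 78.9 in Mettl14f/f libraries. The groups were far apart (log2 fold change 0.67, SE 0.0756, limma adjusted p = 0.000956). Ndufs5, of the same cysteine-rich kind, had 121, 129 and 112 scaled FPKM in Mettl14Δfat libraries, against 82.6, 74.6 and 79.5 in Mettl14f/f libraries. There was no overlap (log2 fold change 0.61, SE 0.0737, limma adjusted p = 0.00119). Ndufa3, a small membrane subunit, was the most abundant of the subunits, with 239, 226 and 208 scaled FPKM in Mettl14Δfat libraries, against 153, 150 and 142 in Mettl14f/f libraries. Each Mettl14Δfat library was above each Mettl14f/f library (log2 fold change 0.59, SE 0.0733, limma adjusted p = 0.00125). Ndufa1 (0.49), Ndufa11 (0.49), Ndufa10 (0.36), Ndufc1 (0.32) and Ndufc2 (0.25) were higher too. Ndufa11 lost the call without Mettl14Δfat replicate 1 or 2 or Mettl14f/f replicate 1 or 3 (limma adjusted p between 0.0544 and 0.0843). Ndufc2 lost it without Mettl14Δfat replicate 2 or Mettl14f/f replicate 2 or 3 (0.0784 to 0.0959). Ndufa13, also known as GRIM19, did not pass (log2 fold change 0.12, limma adjusted p = 0.444). Its exons share 375 bases with Tssk6, a testis kinase, on the other strand, which averaged 1.70 ± 1.15 scaled FPKM in Mettl14Δfat libraries and 0.992 ± 0.151 in Mettl14f/f libraries (SD, n = 3 each).

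The distal membrane arm had 10 of 11 subunits higher, with a median log2 fold change of 0.44, and it held the largest change of any subunit. Ndufb9 is an LYR-motif protein that anchors an acyl carrier protein to the complex. It had 192, 203 and 179 scaled FPKM in Mettl14Δfat libraries, against 115, 104 and 104 in Mettl14f/f libraries. The groups were far apart (log2 fold change 0.82, 95% interval 0.64 to 1.00, limma adjusted p = 0.00049). Gm49356 shares 201 exonic bases with Ndufb9 on the same strand, and how reads from these bases were assigned is not known. The same holds for Ndufb8, which shares 134 bases with Gm20538, and Ndufb2, which shares 145 with Gm42420. Ndufab1, the mitochondrial acyl carrier protein itself, had 108, 120 and 94.6 scaled FPKM in Mettl14Δfat libraries, against 63.9, 66.8 and 59.5 in Mettl14f/f libraries. It was higher in all 3 Mettl14Δfat mice (log2 fold change 0.75, 95% interval 0.52 to 0.98, limma adjusted p = 0.00151). Ndufab1 also serves lipoic acid and iron-sulfur cluster synthesis outside complex I. The ratio of Ndufab1 to Ndufv1 was 2.30, 2.54 and 2.06 in Mettl14Δfat libraries, against 1.32, 1.49 and 1.41 in Mettl14f/f libraries, without overlap.

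Ndufb3, a subunit with a single membrane helix, had 95.2, 94.6 and 84.2 scaled FPKM in Mettl14Δfat libraries, against 57.8, 61.0 and 58.3 in Mettl14f/f libraries. The groups did not overlap (log2 fold change 0.62, SE 0.0674, limma adjusted p = 0.000864). Ndufb5, also a membrane subunit, had 70.5, 71.4 and 69.1 scaled FPKM in Mettl14Δfat libraries, against 47.9, 46.6 and 45.9 in Mettl14f/f libraries. Both groups were tight and apart (log2 fold change 0.58, SE 0.0496, limma adjusted p = 0.000423). Its exons overlap those of Mrpl47 on the other strand by 158 bases, and Mrpl47 did not pass (log2 fold change 0.23, limma adjusted p = 0.162). Ndufb6 (0.54), Ndufb8 (0.44), Ndufb10 (0.41), Ndufb4 (0.37), Ndufb7 (0.32) and Ndufb11 (0.18) were also higher. Ndufb4 lost the call without Mettl14Δfat replicate 1 or any 1 of the Mettl14f/f libraries (limma adjusted p between 0.0567 and 0.0716). Ndufb11 lost it without Mettl14Δfat replicate 1 or 2 or Mettl14f/f replicate 2 or 3 (0.0579 to 0.111). Ndufb2 did not pass (log2 fold change 0.12, limma adjusted p = 0.330), with overlap.

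Ndufa4, first described as a complex I subunit and now assigned to complex IV, was the most abundant of the 45 with 293, 293 and 282 scaled FPKM in Mettl14Δfat libraries, against 247, 224 and 225 in Mettl14f/f libraries. The groups did not overlap (log2 fold change 0.32, SE 0.0662, limma adjusted p = 0.00834). Ndufa4l2, its paralog known for induction by hypoxia, had 16.4, 19.8 and 16.6 scaled FPKM in Mettl14Δfat libraries, against 12.7, 13.7 and 11.8 in Mettl14f/f libraries. It was likewise higher in each Mettl14Δfat mouse (log2 fold change 0.43, SE 0.0913, limma adjusted p = 0.00882). Ndufa4 was 17.9, 14.8 and 17.02 times as abundant as Ndufa4l2 in Mettl14Δfat libraries, against 19.5, 16.3 and 19.0 times in Mettl14f/f libraries, and these ratios overlapped. Neither gene passed with Mettl14Δfat replicate 3 alone.

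Across the members, Mettl14Δfat replicate 2 was the highest library of its group for 33 genes and replicate 3 the lowest for 30. Sperm transcripts were present in replicates 1 and 2 (Prm1 at 58.0 and 87.4 scaled FPKM), against 0.145 in replicate 3. Their part in this order was not tested. Each Mettl14Δfat library still lay above all Mettl14f/f libraries for most members: 41 for Mettl14Δfat replicate 1, 42 for replicate 2 and 39 for replicate 3. Shares of all genes were not counted for single libraries. For all 3 Mettl14Δfat libraries together above all Mettl14f/f libraries, the share was 30.3% of genes tested. The order of abundance among the 36 subunits was nearly the same in all 6 libraries, with Spearman correlations between libraries of 0.934 to 0.991 as a description over genes of the same tissue. The most abundant subunit was 9.56, 8.28 and 9.66 times the least abundant one in Mettl14Δfat libraries, against 11.0, 8.37 and 8.09 times in Mettl14f/f libraries.

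**Figure D3:**
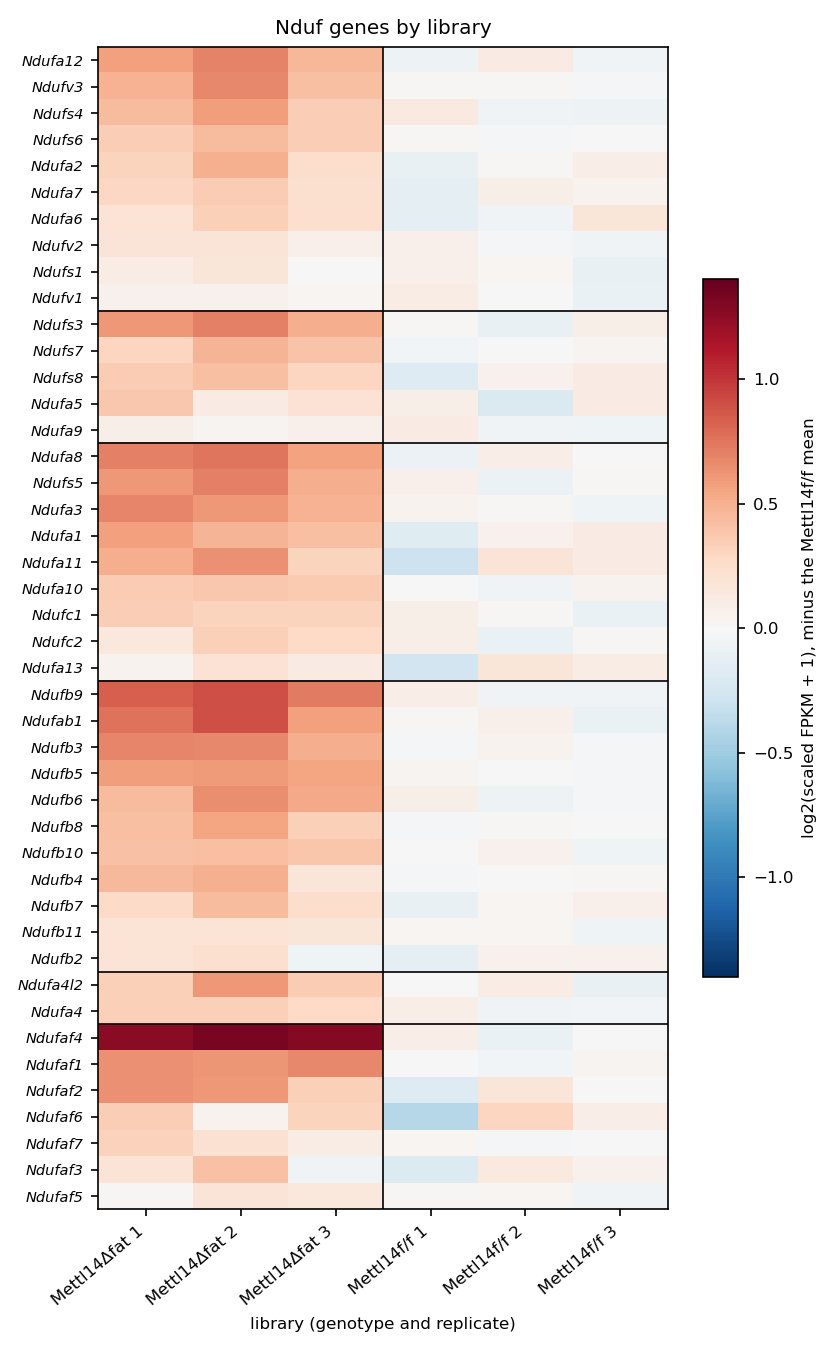
Each cell is the log2(scaled FPKM + 1) of 1 of 44 Nduf genes in 1 library, minus the mean of the 3 Mettl14f/f libraries; red is higher, blue is lower, and lines separate the modules in the order N, Q, proximal arm, distal arm, Ndufa4 pair and assembly factors. The 3 Mettl14Δfat columns are red for nearly every gene, darkest for Ndufaf4, and replicate 3 is the palest of them for most genes.

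Members were shorter and more abundant than most genes tested, and over all genes the fold change was higher for shorter transcripts. The 45 had a median transcript length of 861 bases, against 2743 for all genes tested. Of the 20 members up to 750 bases long, 17 were higher, beside 32.6% of the 574 genes of that length, whose median log2 fold change was 0.28. The median of those members was 0.39. Of 17 members between 750 and 1500 bases, 11 were higher (median 0.37), beside 32.5% of 1913 genes (median 0.14). Both members longer than 3000 bases, Ndufaf4 and Ndufab1, were higher, beside 20.3% of 5686 genes (median −0.08). Of the 28 members with a mean of at least 50 scaled FPKM, 26 were higher, beside 25.1% of the 1626 genes at that level, of which 35.4% were lower. At 10 to 50 scaled FPKM, 5 of 12 members were higher (median 0.21), beside 24.7% of 4858 genes. Below 10 scaled FPKM, 3 of 5 were higher (median 0.23), beside 24.8% of 6437 genes. The part of length in these values was not tested.

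The 45 genes lie on 16 chromosomes with at most 6 on any of them, and most have no neighbour among the others. The nearest pair, Ndufs8 and Ndufv1 on chromosome 19, is 94724 bases apart, and of that pair Ndufs8 passed and Ndufv1 did not. Exons of 16 members overlap those of another gene. RefSeq also lists near-copies of Ndufa12, Ndufab1, Ndufs6, Ndufb4, Ndufa11 and Ndufs5, so the split of reads for these genes is uncertain. The copy of Ndufs5 has an entry of its own, under the symbol BC002163, and is therefore outside the 45.

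Start-site sequences were matched for 39 members. In the 250 bases before the start, on either strand, the Nrf1 palindrome was present for 2 of the 39, Ndufaf4 and Ndufa11, which is 5.13%, against 1.82% of 10197 genes tested with a promoter and 0.782% of all 32851 promoters. CCGGAAG was present for Ndufaf1, Ndufs3, Ndufb6 and Ndufb7, 10.3% of the members, against 15.3% of genes tested and 6.91% of all promoters. CCAAT, the NFY sequence, was present for 33.3% of the members, against 40.3% of genes tested and 33.8% of all promoters. TCAAGGTCA, the sequence of the ERR receptors, was in none of the 39 windows and in 0.294% of those of genes tested, and AAGATGGCG, a YY1 sequence, was in none and in 1.37%. Matches to different sequences were counted separately. A match describes letters only, and most members that were higher held neither the Nrf1 nor the ETS sequence.

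Among 12 further assembly factors of complex I whose symbols do not begin with Nduf, 7 were higher and 5 did not pass, with a median log2 fold change of 0.24. Tmem70 (0.52), Ecsit (0.47), Foxred1 (0.43), Nubpl (0.40), which delivers iron-sulfur clusters, Dmac1 (0.35, listed as Tmem261), Tmem126b (0.25) and Timmdc1 (0.24) were higher. Of the partners of Ndufaf1 named above, Ecsit, Tmem126b and Timmdc1 thus passed, while Acad9 did not. Acad9 had 10.8 ± 0.385 scaled FPKM in Mettl14Δfat libraries and 10.7 ± 0.518 in Mettl14f/f libraries (SD, n = 3 each, limma adjusted p = 0.845). Tmem126a, Tmem186, Dmac2 (listed as Atp5sl) and Lyrm2 did not pass.

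Genes of complexes III, IV and V, the ATP synthase, were also mostly higher. All 10 complex IV subunits tested were higher (median log2 fold change 0.51), as were 8 of 9 complex III subunits (median 0.47), led by Uqcr10 at 1.03. In the ATP synthase 12 of 16 genes were higher (median 0.25) and 1 was lower, its inhibitor Atpif1 at −0.39 (limma adjusted p = 0.0211). In complex II, succinate dehydrogenase, 1 of 4 was higher, Sdhc at 0.31, and the median was 0.10. With FPKM as deposited, all 4 complex II genes were higher and Atpif1 did not pass (limma adjusted p = 0.0823). Over complexes II to V, 31 of 39 were higher with a median of 0.34, beside 34 of 45 and 0.37 for the Nduf genes. The differences between these lists were not tested.

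General markers of mitochondrial content were mixed. Of 13 such genes, 7 were higher (median log2 fold change 0.23), among them the chaperonins Hspe1 (0.64) and Hspd1 (0.59), the import channel gene Timm23 (0.61) and citrate synthase, Cs (0.28). Vdac2, a pore of the outer membrane, was lower (−0.60, limma adjusted p = 0.0011), and Vdac1 was at 86.6 ± 2.59 scaled FPKM in Mettl14Δfat libraries and 86.7 ± 1.52 in Mettl14f/f libraries (SD, n = 3 each). Of all genes tested, 24.8% were higher and 24.8% lower. Of 10 tested regulators of mitochondrial gene expression, 1 was higher, Gabpb1 (0.35), and 2 were lower, Pprc1 (−0.28) and Yy1 (−0.18). Neither of the 2 passed with FPKM as deposited, at −0.13 and −0.025. Nrf1, Esrra and Tfam did not pass, at log2 fold changes of 0.05, 0.04 and 0.19. Ppargc1a, which encodes the coactivator PGC-1α, was under the filter at 0.599, 0.885 and 0.252 scaled FPKM in Mettl14Δfat libraries and 0.334, 0.139 and 0.222 in Mettl14f/f libraries.

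**Figure D4:**
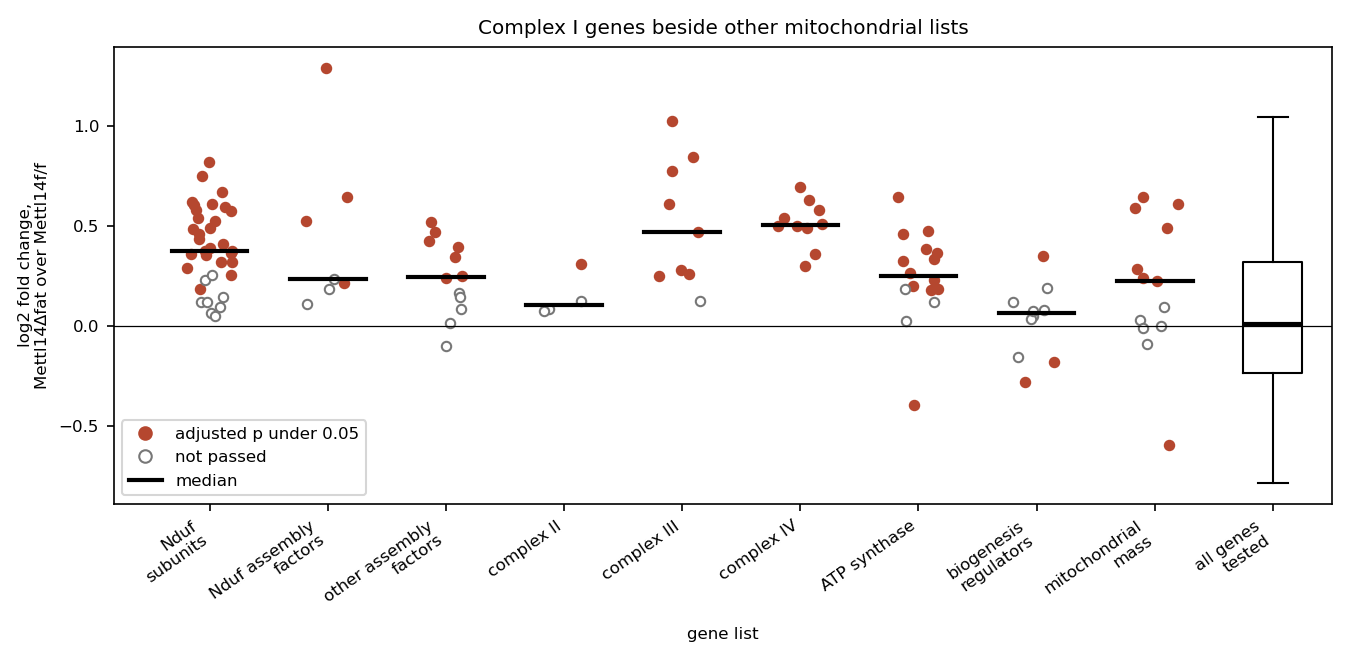
Log2 fold change, Mettl14Δfat over Mettl14f/f, of genes in the Nduf groups and in other mitochondrial lists; filled points passed an adjusted p under 0.05, bars are list medians, and the box spans the quartiles of all genes tested with whiskers to the outer 5% on each side. The median is 0.37 for Nduf subunits, 0.47 for complex III and 0.51 for complex IV, against 0.10 for complex II and 0.01 for all genes.

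Markers of other cell types also differed between the groups. The summed level of 7 adipocyte markers was 12647, 14241 and 9898 scaled FPKM in Mettl14Δfat libraries, against 10162, 7445 and 9017 in Mettl14f/f libraries, with overlap. Most of that sum was Fabp4, a fatty acid binding protein, with 10755, 12015 and 8454 scaled FPKM in Mettl14Δfat libraries, against 7762, 5751 and 6841 in Mettl14f/f libraries. Of the 7, Fabp4 (0.61) and Pparg (0.45) were higher and Lep was lower (−0.46), while Adipoq (−0.42), Cidec (−0.25), Plin1 (0.26) and Lipe (0.31) did not pass. Of 9 macrophage markers, 6 were lower, and their sum was 2766, 2056 and 3992 in Mettl14Δfat libraries, against 5853, 6568 and 5903 in Mettl14f/f libraries. All 6 endothelial markers were higher, with sums of 249, 260 and 248 in Mettl14Δfat libraries, against 143, 117 and 130 in Mettl14f/f libraries. The sum of 7 brown and beige adipocyte markers was 62.4, 62.5 and 59.5 in Mettl14Δfat libraries, against 27.0, 17.9 and 16.4 in Mettl14f/f libraries. It came from Cox8b (1.82) and Cox7a1 (1.05), both subunits of complex IV, while the other 5 were under the filter and Ucp1, the defining marker, was at most 0.615 scaled FPKM in any library. Of 5 skeletal muscle markers tested, Acta1 was lower (−1.15), and the other 4 had log2 fold changes of 0.21 to 0.35 that did not pass. The summed muscle level, mostly Acta1, was 33.5, 28.9 and 30.4 in Mettl14Δfat libraries, against 50.4, 46.5 and 54.4 in Mettl14f/f libraries. The visceral markers Wt1 and Tcf21 summed to 8.86, 9.38 and 9.21 in Mettl14Δfat libraries, against 8.47, 8.70 and 9.09 in Mettl14f/f libraries, so both groups held these markers of visceral fat. The part of the macrophage, endothelial and adipocyte levels in the complex I result was not tested.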

How the data were processed

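The authors deposited FPKM for each library. The labels describe poly(A) selection or rRNA depletion without saying which, then random priming. The submitters' processing notes list the tools HISAT2, Bowtie2, RSEM and DESeq2 and the build mm10 (GRCm38), whereas STAR and HTSeq are named with DESeq2 in the methods of the paper. No source used here gives versions. A second deposited table holds the authors' fold changes and p-values, which were not used, and a mean signal per group, a count scaled by the authors. For the 29 members in it, this was 233 to 2719 in Mettl14Δfat and 162 to 2248 in Mettl14f/f. The depth of single libraries is unknown, so precision was judged by the spread among mice.

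Of 21362 entries, 1 without an identifier was left out, and 27 symbols turned into dates were restored. The filter kept genes whose mean was 1 FPKM or more. Libraries were scaled by an unweighted trimmed mean of M values (30% of ratios and 5% of levels trimmed), giving factors of 1.07, 1.07 and 1.03 for Mettl14Δfat and 0.959, 0.933 and 0.944 for Mettl14f/f. limma 3.58.1 in R 4.3.3 was fitted on log2(scaled FPKM + 1) with a mean-variance trend and Benjamini-Hochberg adjustment. All tests were two-sided. The fit was also run on simulated data in which far fewer genes changed than were called here. That run therefore does not show how it performs when so many genes change. Per-library values are given for core subunits, the Ndufaf genes, Ndufa4, Ndufa4l2 and the 8 other members with the largest change past the threshold. Ndufaf8 and the genes that share exons with members were named after their values were seen. The values of 1 member are not reported here, though it is in the counts and medians. The members and lists were chosen with earlier results of these data known. Gene coordinates and promoters came from RefSeq tables of GRCm38.p6 (21300 identifiers matched) and exon overlaps from GENCODE. The alternatives changed the pseudocount (0.1), the filter (none, or 1 FPKM required of all libraries), the scaling (median of ratios, or none), the libraries (each left out, or Mettl14Δfat replicates 1 and 2 left out) or added the replicate number as a block.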

Additional observations from a re-analysis of the deposited data

How the results depend on the processing

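Over 13 alternatives, 18 to 40 of the 45 members were higher and 0 were lower, and 18 of the 34 were higher in every one. The count was 18 with Mettl14Δfat replicate 3 alone and 27 to 35 with each library left out in turn. The number of all genes called higher also moved with the setting, from 3211 of 12955 in the main fit to 4672 with FPKM as deposited. With 1 library left out it ran from 2256 of 12822 (without Mettl14Δfat replicate 1) to 3813 of 12987 (without Mettl14Δfat replicate 3). Genes called lower numbered 3209 of 12955 in the main fit and 1963 with FPKM as deposited. With the same libraries left out, 2202 of 12822 and 3565 of 12987 were lower. The members higher in every alternative were the same as those higher with Mettl14Δfat replicate 3 alone. How many of all genes kept the call in every alternative was not counted. Leaving out 1 library cost members the call, among them Ndufa11, Ndufa2, Ndufa7, Ndufaf7, Ndufb11, Ndufb4, Ndufc2 and Ndufs8. The median log2 fold change of the subunits was 0.53 with FPKM as deposited, 0.30 with no filter and 0.35 to 0.40 with each library left out. That of the assembly factors was 0.36 with FPKM as deposited, 0.18 with no filter, 0.32 with a pseudocount of 0.1, 0.31 with Mettl14Δfat replicate 3 alone and 0.18 to 0.39 with each library left out. Ndufaf3 turned to −0.044 with Mettl14Δfat replicate 3 alone (limma adjusted p = 0.844) and Ndufv1 to −0.019 with no filter (adjusted p = 0.811), neither of which passed. The cause was not tested. Whether same-numbered mice were paired, for example as littermates, is not known, and correlations over 3 mice per group cannot decide it. Over 12955 genes, deviations of same-numbered libraries correlated at 0.04, −0.09 and −0.13. With the replicate number as a block 29 members were higher and 0 lower, beside 2653 of 12955 genes higher.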
